A study of Danio rerio with 6 samples.

Results

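The slc25a genes encode the mitochondrial carrier family. Most are proteins of the inner mitochondrial membrane that move nucleotides, phosphate, organic acids, amino acids, cofactors and metal ions between cytosol and matrix. Members were taken as every row of the deposited count table whose gene symbol starts with slc25a in any case, which gave 59 of 31953 genes. The rule did not use expression values. The uncoupling proteins ucp1, ucp2 and ucp3 belong to the same protein family but carry another symbol, so they are not members. In the kidney, tubule segments that pump salt depend on ATP made in mitochondria, and carriers set how fuel enters the matrix and how ATP leaves it.

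The RNA came from adult zebrafish (Danio rerio) carrying the transgene Tg(slc12a3:mCherry), in which a red fluorescent protein marks the distal late (DL) part of the nephrons. The organ studied is the mesonephros, the kidney of adult fish. The DL group held 3 libraries of mCherry-positive (mCh+) segments dissected by hand. The rest group held 3 libraries of the mesonephros without DL segments (mCh-), from fish with the same transgene. The rest contains the other nephron segments together with the blood-forming, vascular and stromal cells of the organ. The labels do not say which animals the libraries came from, so a p-value here reflects the spread among these 6 libraries, and part or all of it may be technical.

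Total counts per library ran from 9320756 to 22776825. DL replicate 1 and rest replicate 3 stood apart. The 20 genes most abundant over all libraries took 77.4% and 80.5% of their counts, against 35.5% to 55.4% in the other 4 libraries. The mitochondrially encoded genes among these 20 took smaller shares in both. MT-CO1 took 1.14% and 1.47%, against 4.53% to 7.35% in the other 4 libraries. The cause was not tested. SLC12A3, whose promoter drives the reporter, had a CPM (read counts scaled to a common library size by TMM) of 251, 905 and 32.9 in the DL libraries in order of replicate, against 41.9, 30.4 and 43.0 in those of the rest. The library numbered DL replicate 3 therefore lay inside the range of the rest for that gene. The distal tubule marker list, which includes SLC12A3, summed to 1832, 2911 and 476 CPM in DL and to 163, 93.4 and 103 CPM in the rest. Much of that sum was slc12a10.3, at 1270, 1721 and 355 CPM in DL and 44.6, 18.4 and 27.1 CPM in the rest. Of 14 matched genes, 9 were tested and 8 were higher in DL. PVALB was lower, with a log2 fold change of -1.34 ± 1.12 (SE). Of the 14 matched genes, 1 with the symbol KCNJ1 was at 0 in all DL libraries, and 1 gene was at 0 in all rest libraries. A symbol can be shared by several genes, and any other copies of KCNJ1 are not reported here.

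No slc25a gene passed the test over all genes, in either direction. Of the 59 members, 44 had enough counts to be tested. The edgeR quasi-likelihood test with Benjamini-Hochberg adjustment called 0 members higher in DL, against 0.0644% of all 17083 genes tested, and 0 lower, against 0% of all genes. DESeq2 also called 0 members higher (1.37% of the genes it tested) and 0 lower (0.342%). By limma-voom there were 0 higher (0.211%) and 0 lower (0%). At an unadjusted edgeR p under 0.05, 3 members were higher, against 4.09% of all genes, and 1 was lower, against 2.73%. With 44 members those shares are near the background. The values below are therefore descriptions of levels, with the size of each difference and its error. In bulk tissue, fewer cells of a type and less RNA per cell cannot be told apart.

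On the TMM scale, the summed level of the carriers was higher in most DL libraries. All 59 members together summed to 2306, 4288 and 2919 CPM in DL libraries 1 to 3, against 2309, 1976 and 1695 CPM in libraries 1 to 3 of the rest. DL replicates 2 and 3 lay above every rest library, whereas DL replicate 1 lay just under rest replicate 1. DL averaged 3171 ± 1015 CPM (SD) and the rest averaged 1993 ± 307 CPM, with n = 3 in each group and a ratio of 1.59. SLC25A5, an ADP/ATP carrier, alone took 66.8% ± 11.3 of the family's counts in DL and 63.6% ± 9.54 in the rest. Counts are not corrected for transcript length, so this is a share of counts and not of molecules. Without SLC25A5, the other 58 members summed to 1013, 915 and 1003 CPM in DL and to 721, 604 and 804 CPM in the rest. The most heavily counted of these 58 were SLC25A25 (ENSDARG00000010572), SLC25A3 (ENSDARG00000025566) and slc25a55a. They averaged 199, 161 and 127 CPM over all libraries, and each overlapped between groups. For the sum of the 58 members, every DL library lay above every rest library on the TMM scale. That separation depended on the scaling, whose factors ran from 0.520 to 1.80 over the libraries. As a share of raw counts, all 59 members took 0.120%, 0.498% and 0.331% in DL, against 0.414%, 0.297% and 0.0901% in the rest. These shares overlapped between groups, as the sum of all 59 members did on the TMM scale. The lowest shares were in DL replicate 1 and rest replicate 3. The raw share of the 58 members alone is not given here.

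**Figure D1:**
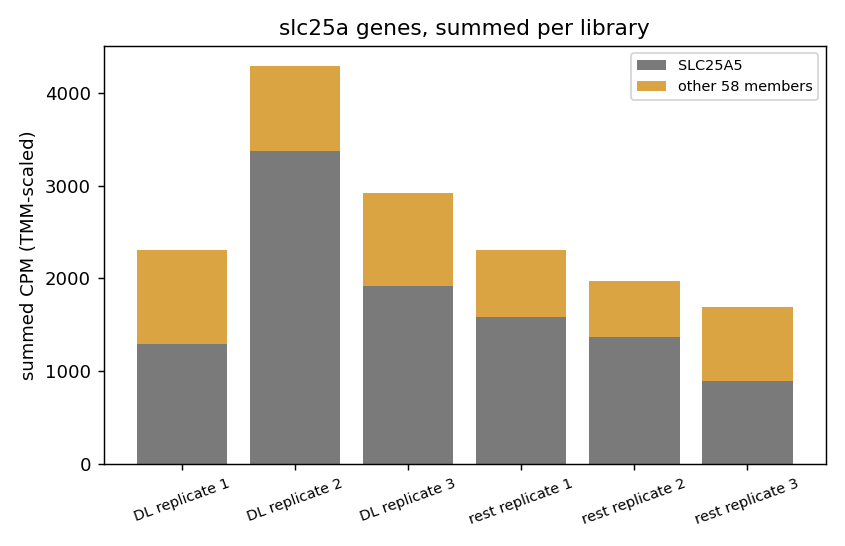
Summed expression of the slc25a genes in each library, in TMM-scaled CPM, split into SLC25A5 (grey) and the other 58 members (yellow), with no error bars because each bar is 1 library. On this scale the other 58 members reach 915 to 1013 CPM in DL, against 604 to 804 CPM in rest libraries, while SLC25A5 ranges more widely.

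Among the 44 members tested, 26 had a positive and 18 a negative log2 fold change (DL minus rest). That is 59.1% positive, against 46.5% of all genes tested. The median log2 fold change was 0.24 over the members and -0.07 over all genes. The sign of the members' median depended on the scaling: under scaling by library size alone it was -0.14, while that of all genes was -0.50, and 43.2% of members and 26.7% of all genes were positive. The distance between both medians was 0.31 as reported and 0.37 under library size, and it was 0.50 without rest replicate 1 and 0.26 without rest replicate 2. Single members were imprecise. The median standard error of a fold change was 0.77 on the log2 scale, and in 26 of 44 members the fold change was smaller than its own standard error. Every DL library lay above every rest library in 6 members, against 6.82% of all genes, and below every rest library in 2, against 6.28%.

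**Figure D2:**
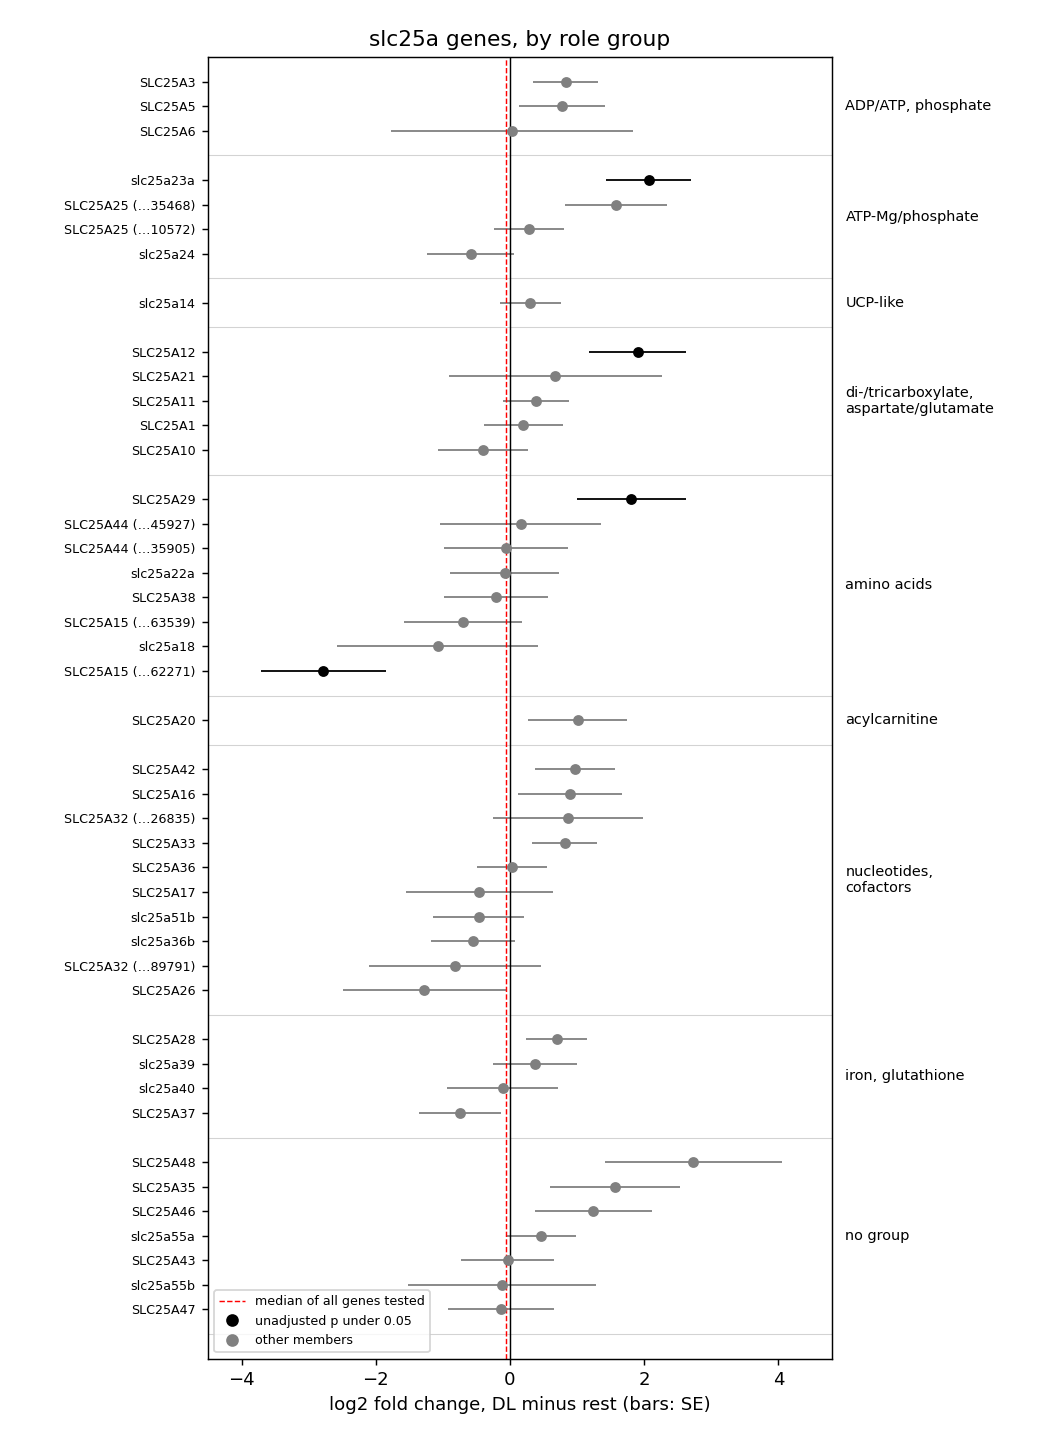
Log2 fold change, DL minus rest, with its standard error for 43 of the 44 slc25a genes tested, grouped by what the carrier moves; black points have an unadjusted p under 0.05 and the dashed line is the median of all genes at -0.07. The 4 black points are slc25a23a, SLC25A12, SLC25A29 and, on the negative side, 1 copy of SLC25A15, and amino acid carriers run from -2.78 to 1.81.

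Of the 5 carriers that supply the ATP synthase and export its product, 3 were tested. Among them SLC25A5 and a copy of SLC25A3 had positive fold changes and wide errors. SLC25A5, which exchanges cytosolic ADP for matrix ATP, stood at 1293, 3373 and 1916 CPM in DL libraries, against 1587, 1372 and 892 CPM in rest libraries. DL replicate 2 was the highest library and rest replicate 3 the lowest, and the groups overlapped. Its log2 fold change was 0.77 ± 0.65 (SE), and 0.33 both without DL replicate 2 and under scaling by library size alone. SLC25A3 (ENSDARG00000025566), which brings phosphate into the matrix for ATP synthesis, stood at 270, 225 and 123 CPM in DL libraries, against 161, 93.4 and 93.0 CPM in rest libraries. DL replicates 1 and 2 were above all rest libraries and DL replicate 3 was not, with a log2 fold change of 0.83 ± 0.49. It was 0.47 without DL replicate 1 and rest replicate 3, and 0.17 under scaling by library size alone. The third tested member of this group, SLC25A6, had under 2 CPM in every library and a log2 fold change of 0.03 ± 1.80 (-0.04 by DESeq2). SLC25A4 and another copy of SLC25A3 had too few counts to be tested.

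The ATP-Mg/phosphate carriers, which adjust the adenine nucleotide pool of the matrix in response to calcium, had 3 positive and 1 negative fold change among 4 tested. The smallest edgeR p of any member belonged to slc25a23a, at 49.7, 12.4 and 13.8 CPM in DL, against 5.91, 6.498 and 5.59 CPM in the rest. Every DL library was above every rest library, and the rest libraries were close together, while DL replicate 1 was far above the other DL libraries. The log2 fold change was 2.07 ± 0.63 (adjusted p = 0.386 by edgeR and 0.0876 by DESeq2). Leaving out DL replicate 1 gave 1.17, and leaving out rest replicate 3 as well gave 1.09 (edgeR adjusted p = 0.918), so a large part of its size rests on that library.

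SLC25A25 has 2 copies. The copy ENSDARG00000010572 was the more heavily counted, at 129, 213 and 314 CPM in DL, against 108, 160 and 271 CPM in the rest, and its fold change of 0.28 ± 0.52 was smaller than its error. The copy ENSDARG00000035468 stood at 15.01, 17.2 and 3.03 CPM in DL libraries, against 3.99, 5.63 and 2.03 CPM in rest libraries, with a log2 fold change of 1.58 ± 0.76. DL replicates 1 and 2 were above all rest libraries there, and the library numbered DL replicate 3 lay among them. Leaving out DL replicate 1 with rest replicate 3 gave 1.11, and scaling by library size alone gave 0.90. For slc25a24 the sign was opposite, at -0.59 ± 0.64. Of the 2 uncoupling-protein-like carriers, slc25a14 (UCP5 in mammals) was tested. It stood at 18.5, 20.4 and 18.1 CPM in DL libraries, against 17.4, 13.7 and 15.1 CPM in rest libraries. These groups did not overlap, but the log2 fold change was 0.30 ± 0.45 and became -0.16 under scaling by library size alone.

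Carriers of di- and tricarboxylates and of aspartate carry reducing power and carbon between cytosol and matrix. Of 5 tested members 4 were positive and 1 negative. SLC25A12, the calcium-activated aspartate/glutamate exchanger of the malate-aspartate shuttle, stood at 55.9, 31.7 and 8.98 CPM in DL libraries, against 14.7, 7.47 and 3.22 CPM in rest libraries. DL replicates 1 and 2 exceeded all rest libraries, and the library numbered DL replicate 3 lay within their range. The log2 fold change was 1.91 ± 0.72 (adjusted p = 0.563 by edgeR and 0.219 by DESeq2). Leaving out DL replicate 3 gave 2.37, whereas leaving out DL replicate 1 with rest replicate 3 gave 0.89. Its relative SLC25A13 (citrin) had too few counts to be tested, with 7, 31 and 0 counts in DL and 0, 0 and 2 counts in the rest.

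The other tested members of this group had edgeR fold changes closer to zero. SLC25A21, which carries 2-oxodicarboxylates, had 0.68 ± 1.59, but -2.22 by limma-voom. It stood at 6.11, 0 and 1.61 CPM in DL libraries, against 2.86, 1.30 and 0.508 CPM in rest libraries. Its sign was reversed in 4 of 15 alternatives. SLC25A11, which exchanges 2-oxoglutarate for malate in the same shuttle, had a log2 fold change of 0.39 ± 0.49. A citrate carrier copy, SLC25A1 (ENSDARG00000076381), had 0.20 ± 0.59, and a dicarboxylate carrier copy, SLC25A10 (ENSDARG00000025074), had -0.40 ± 0.67. Another citrate carrier copy, slc25a1a, was not tested, with 1, 0 and 0 counts in DL and 7, 12 and 5 counts in the rest.

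The amino acid carriers held the most negative fold change of the family. Of 8 tested, 2 were positive and 6 negative. SLC25A15 moves ornithine across the inner membrane and links the matrix and cytosolic steps of the urea cycle. Its copy ENSDARG00000062271 stood at 2.22, 0.189 and 2.18 CPM in DL libraries, against 12.4, 8.01 and 10.34 CPM in rest libraries. All DL libraries were below all rest libraries by a wide gap. The log2 fold change was -2.78 ± 0.93 (adjusted p = 0.459 by edgeR, 0.0948 by DESeq2 and 0.284 by limma-voom). It ranged from -3.65 to -2.21 over all 15 alternatives, and was -3.15 without DL replicate 3. The copy ENSDARG00000063539 stood at 3.75, 0.907 and 4.63 CPM in DL libraries, against 4.50, 3.95 and 6.61 CPM in rest libraries, with overlap between groups and a log2 fold change of -0.70 ± 0.88.

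SLC25A29 (ENSDARG00000057352), a carrier of basic amino acids, went the other way. It stood at 7.92, 9.83 and 7.19 CPM in DL libraries, against 0.700, 2.98 and 3.56 CPM in rest libraries. Every DL library, including the one numbered DL replicate 3, was above every rest library. The log2 fold change was 1.81 ± 0.81 (adjusted p = 0.719 by edgeR and 0.428 by DESeq2), and leaving out DL replicate 1 with rest replicate 3 gave 2.24. The other 6 tested members of this group had fold changes smaller than their standard errors, from -1.08 for slc25a18, a glutamate carrier, to 0.16 for a copy of SLC25A44, which carries branched-chain amino acids.

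**Figure D3:**
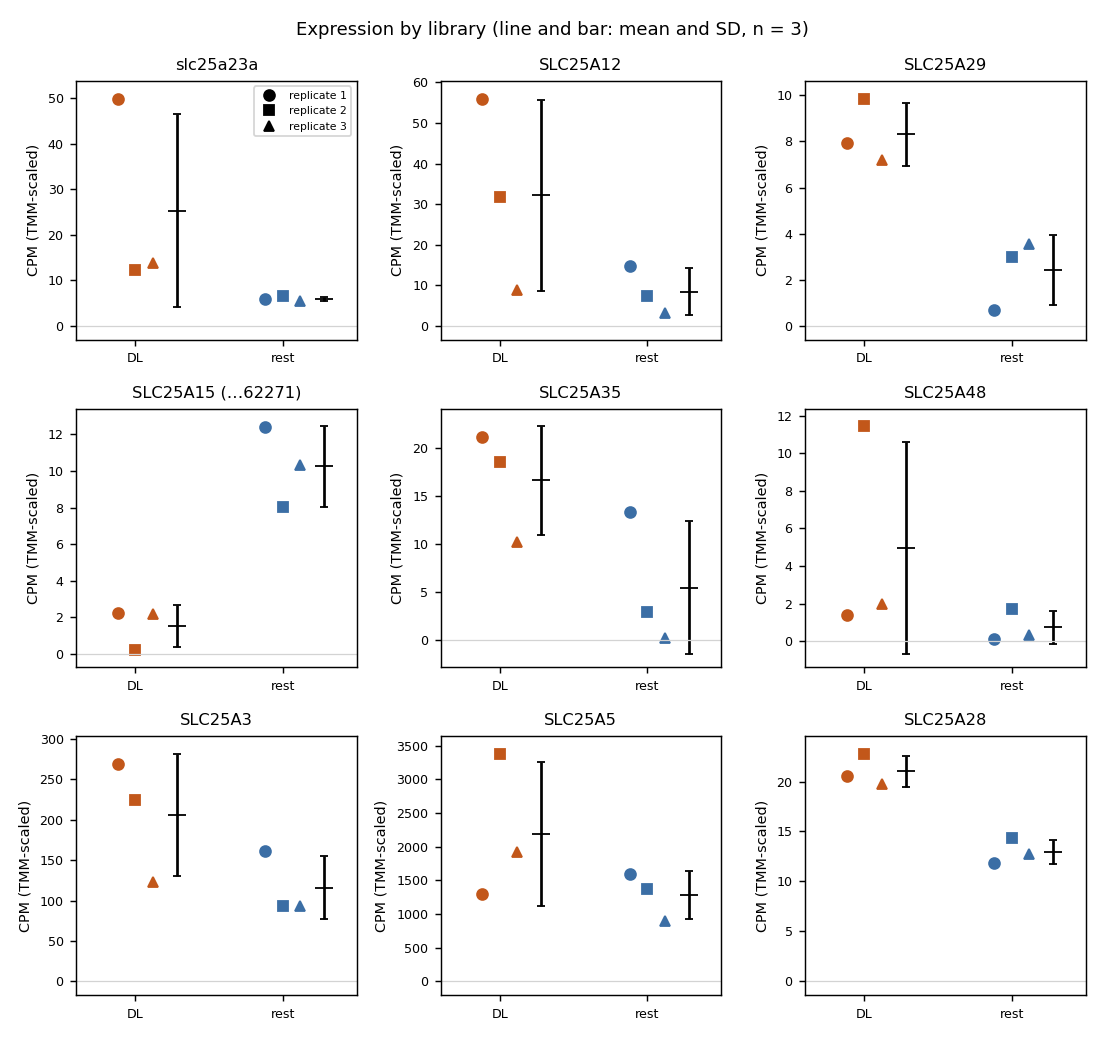
TMM-scaled CPM of 9 slc25a genes in each library (circles, squares and triangles are replicates 1, 2 and 3; lines with bars are mean and SD, n = 3), DL in orange and rest in blue. DL replicate 1 stands far above the others in slc25a23a at 49.7 CPM. The groups do not overlap in slc25a23a, SLC25A15 (ENSDARG00000062271), SLC25A29 and SLC25A28.

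SLC25A20, the carrier that brings acylcarnitines into the matrix for fatty acid oxidation, stood at 10.6, 14.4 and 2.93 CPM in DL libraries, against 6.30, 3.14 and 4.41 CPM in rest libraries. DL replicates 1 and 2 were the highest libraries and DL replicate 3 the lowest of all 6. The log2 fold change was 1.01 ± 0.74. It was 1.47 without DL replicate 3, 0.54 without DL replicate 2 and 0.47 under scaling by library size alone.

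Carriers of nucleotides and cofactors were divided, with 6 positive and 5 negative of 11 tested and a median log2 fold change of 0.03. SLC25A33, a pyrimidine nucleotide carrier, stood at 47.1, 68.9 and 44.9 CPM in DL libraries, against 16.7, 26.8 and 48.5 CPM in rest libraries. Rest replicate 3 lay within the DL range and the other rest libraries lay below it, with a log2 fold change of 0.81 ± 0.49. Leaving out rest replicate 3 gave 1.33, leaving out DL replicate 1 as well gave 1.41, and leaving out rest replicate 1 gave 0.53. SLC25A42, a coenzyme A carrier, stood at 15.3, 11.6 and 13.8 CPM in DL libraries, against 7.24, 9.96 and 3.39 CPM in rest libraries, with no overlap and a log2 fold change of 0.97 ± 0.59. It was 0.57 without DL replicate 1 and rest replicate 3, and 0.31 under scaling by library size alone. On the negative side, SLC25A26, which imports S-adenosylmethionine, stood at 2.22, 0.0756 and 2.65 CPM in DL libraries, against 3.32, 2.65 and 5.93 CPM in rest libraries. Its log2 fold change was -1.28 ± 1.22. Of 2 copies of the folate and FAD carrier SLC25A32, ENSDARG00000026835 had 0.87 ± 1.12 and ENSDARG00000089791 had -0.81 ± 1.28.

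Iron enters the matrix through the mitoferrins, which feed heme and iron-sulfur cluster synthesis. SLC25A28 (mitoferrin 2) stood at 20.6, 22.7 and 19.8 CPM in DL libraries, against 11.9, 14.3 and 12.7 CPM in rest libraries. Both groups were tight and did not overlap, yet the log2 fold change of 0.70 ± 0.46 did not pass (edgeR adjusted p = 0.913), and it was 0.26 under scaling by library size alone. SLC25A37 (mitoferrin 1), the form needed by developing red cells in zebrafish, stood at 5.56, 6.16 and 9.08 CPM in DL libraries, against 5.88, 16.03 and 13.05 CPM in rest libraries, with a log2 fold change of -0.75 ± 0.61. Among 16 erythroid marker genes, 13 were tested and 4 had positive fold changes, and none was at 0 in all libraries of a group. Their summed level was 74.8, 76.7 and 860 CPM in DL and 157, 911 and 462 CPM in the rest. The highest mitoferrin 1 library of each group was also the library with the most erythroid marker counts in that group, and the part of red cells in this value was not tested. The glutathione carriers slc25a39 and slc25a40 had 0.38 ± 0.62 and -0.11 ± 0.83.

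Among members given no role group, SLC25A48 had the largest positive fold change of the family at 2.73 ± 1.32, with 1.39, 11.5 and 1.99 CPM in DL and 0.122, 1.73 and 0.339 CPM in the rest. DL replicate 2 alone was far above the rest, and leaving it out gave 1.19, while leaving out rest replicate 2 gave 4.56. SLC25A35 stood at 21.1, 18.5 and 10.2 CPM in DL libraries, against 13.3, 2.87 and 0.169 CPM in rest libraries, with a log2 fold change of 1.57 ± 0.97, and rest replicate 1 lay within the DL range. It was 3.35 without rest replicate 1, 1.04 without rest replicate 3, 0.83 without that library and DL replicate 1, and 0.63 under scaling by library size alone. SLC25A46, a member of the outer membrane that acts in mitochondrial fission and fusion, had 1.25 ± 0.87, and 0.67 under scaling by library size alone. The heavily counted slc25a55a stood at 136, 77.4 and 227 CPM in DL libraries, against 132, 64.1 and 124 CPM in rest libraries, with overlap and a log2 fold change of 0.46 ± 0.52.

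The 15 members that were not tested had few counts. In 7 of them the counts of all libraries together were under 10, and 2 of these were at 0 in every library (slc25a22b and SLC25A29 copy ENSDARG00000098849). SLC25A4, the ADP/ATP carrier of mammalian heart and skeletal muscle, had 7, 17 and 5 counts in DL and 104, 3 and 22 counts in the rest, most of them in rest replicate 1. The same library held 100 of the 110 rest counts of SLC25A38 copy ENSDARG00000059805, a gene whose product carries glycine for heme synthesis, against 10 counts over all DL libraries.

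Comparing copies of a carrier within each library removes the scaling between libraries. For 6 pairs both copies were tested. The log2 ratio of SLC25A15 copy ENSDARG00000062271 to copy ENSDARG00000063539 was -0.74, -2.16 and -1.07 in DL and 1.46, 1.01 and 0.64 in the rest. The first copy thus had fewer counts than the second in all 3 DL libraries and more in all 3 rest libraries. The difference was -2.36, with an exact two-sided permutation p of 0.1, the smallest that 3 against 3 libraries allow, and 0.3 adjusted over the 6 pairs. For slc25a36b over SLC25A36, both pyrimidine nucleotide carriers, the ratio was -1.68, -2.20 and -1.72 in DL and -1.30, -0.78 and -1.56 in the rest, again without overlap (difference -0.66, exact permutation p = 0.1, adjusted 0.3). The other 4 pairs overlapped between groups, with exact permutation p-values from 0.3 to 1. Ratios of lightly counted copies, as in SLC25A32 and slc25a55b, moved by several log2 units between libraries of the same group. Near-identical copies can share reads, so their separate counts are uncertain.

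**Figure D4:**
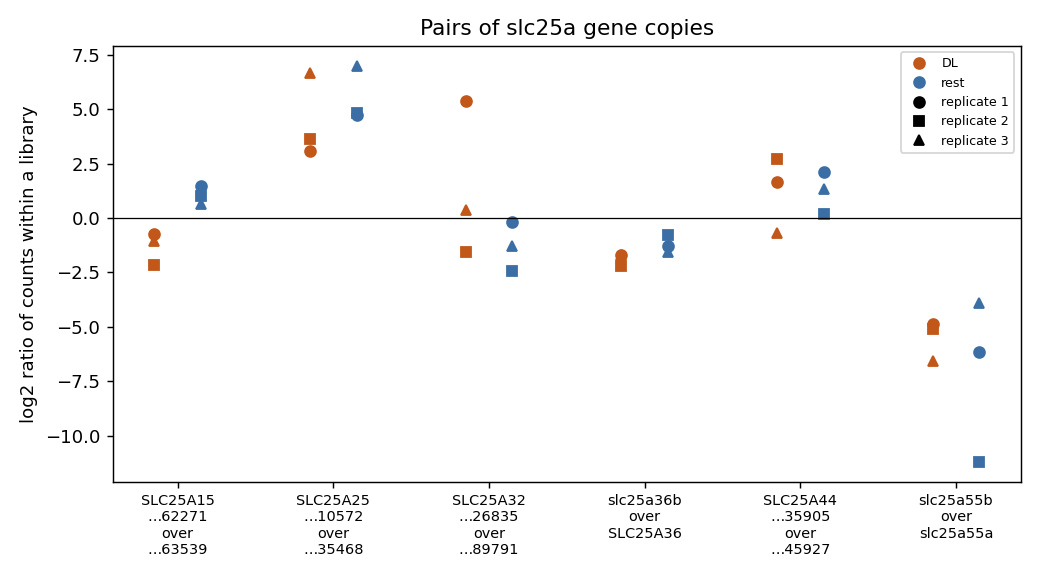
Log2 ratio of counts between the copies of 6 slc25a genes within each library, DL in orange and rest in blue, with circles, squares and triangles for replicates 1, 2 and 3; 0 means equal counts. The SLC25A15 pair is below 0 in the 3 DL libraries and above 0 in the 3 rest libraries, and the slc25a36b pair is also separated, while the other 4 pairs overlap.

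Other mitochondrial gene lists give the setting of the family. Among 12 tested inner membrane carriers outside the slc25a symbol, 9 were positive with a median log2 fold change of 0.55. In 4 of the 12, every DL library lay above every rest library, against 6.82% of all genes, and in 0 below, against 6.28%. edgeR called 1 higher, against 0.0644% of all genes. This was ucp3, an uncoupling protein, whose CPM averaged 246 ± 127 (SD, n = 3) in DL against 10.2 ± 3.13 (n = 3) in rest libraries. Its log2 fold change was 4.59 ± 0.62 (edgeR adjusted p = 0.0419). DESeq2 called 2 higher, against 1.37% of the genes it tested. These were ucp3 and SFXN3, a sideroflexin with a log2 fold change of 3.04 ± 0.71. SFXN3 is outside the naming rule and was picked after seeing its values. Of the 3 negative genes, the one with the smallest edgeR p was SFXN1, another sideroflexin, with a log2 fold change of -1.49 ± 1.37. The DL and rest libraries overlapped for SFXN1. The largest log2 fold change among slc25a genes was 2.73. Nuclear-encoded subunits of the respiratory complexes and ATP synthase had a median of 0.94 with 84 of 90 positive, and edgeR called 0. At an unadjusted edgeR p under 0.05, 15 were higher, against 4.09% of all genes. DESeq2 called 5 higher, against 1.37% of the genes it tested. The summed level of this list was 3258, 5091 and 1953 CPM in DL and 2761, 1284 and 1191 CPM in the rest. DL replicate 3 again lay within the rest range.

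The machinery that makes and imports mitochondrial proteins had lower medians than the respiratory chain and ATP synthase list. Mitochondrial ribosomal proteins had a median of 0.23 with 44 of 66 positive, near the slc25a median of 0.24. The import machinery that inserts carriers into the inner membrane had 0.11 with 12 of 18 positive. Both lists were 66.7% positive, against 59.1% of the slc25a genes and 46.5% of all genes tested. Of the import genes, TIMM13, a chaperone of the space between the membranes, had 1.05 ± 0.71 and TOMM22, a receptor of the outer membrane, had -0.61 ± 0.70. Of the 3 outer membrane channel genes, VDAC2 had 0.62 ± 0.48 and VDAC1 had -0.40 ± 0.49. Neither edgeR nor DESeq2 called a gene of these 3 lists, and at an unadjusted edgeR p under 0.05 there were also 0. The difference between any of these medians and that of the slc25a genes was not tested.

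Fold changes were mostly negative in the marker lists of other cell types, except for multiciliated cells, and edgeR called 0 genes of these lists. At an unadjusted edgeR p under 0.05, 4 stromal and 2 interrenal or chromaffin genes were lower in DL, against 2.73% of all genes. By the same measure 2 multiciliated genes were higher, against 4.09% of all genes. DESeq2 called 2 stromal and 2 interrenal or chromaffin genes lower, against 0.342% of the genes it tested. The summed levels overlapped between groups in the stromal, myeloid and proximal tubule lists, but not in the liver list. Liver markers summed to 10.1, 20.3 and 32.9 CPM in DL, against 89.3, 37.3 and 85.0 CPM in the rest. All 12 stromal marker genes tested were negative (median log2 fold change -1.10), with summed levels of 2094, 253 and 1104 CPM in DL and 1970, 1445 and 3686 CPM in the rest. Of 12 myeloid markers 11 were negative (median -1.51), at 64.7, 525 and 175 CPM in DL, against 323, 1501 and 121 CPM in the rest. Of 15 proximal tubule markers 13 were negative (median -0.48), at 1143, 1569 and 1265 CPM in DL, against 2587, 1609 and 1055 CPM in the rest. The part of these cells in the slc25a values was not tested. Podocyte markers had 7 of 8 negative and liver markers 6 of 6, whereas multiciliated cell markers had 6 of 7 positive. Of the 9 matched multiciliated genes, however, DNAI1 and gmnc were at 0 in all DL libraries, and none was at 0 in all rest libraries. Skeletal muscle markers had 2 of 7 positive, and of 20 matched genes 7 were at 0 in all DL libraries and 8 in all rest libraries. The interrenal and chromaffin markers summed to 6.01, 3.29 and 64.3 CPM in DL, against 11.3, 13.9 and 41.2 CPM in the rest, with the highest value in DL replicate 3. All 3 tested genes of that list were negative, and DBH and TH, enzymes of catecholamine synthesis, were at 0 in all DL libraries. Of its 11 matched genes, 2 were at 0 in all rest libraries.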

How the data were processed

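The authors deposited 1 table of estimated counts per Ensembl gene, partly fractional and with 4 significant digits. How reads were aligned and counted, and on which genome build, is not given in the sources used. Columns were matched to libraries by title. Symbols from a gene name table covered 26121 of 31953 genes, and 18 members share a symbol with another gene and carry their identifier where both are named. Counts were rounded, filtered with filterByExpr (17083 genes left), scaled by TMM and tested with the edgeR 4.0.16 quasi-likelihood F test (robust) in R 4.3.3, with Benjamini-Hochberg adjustment over all genes at 0.05. Standard errors come from dividing the size of a log2 fold change by the root of its F value. CPM uses TMM-scaled library sizes. The scaling factor was 0.520 for DL replicate 1, 0.534 for rest replicate 3 and 1.14 to 1.80 elsewhere. The low-count filter kept 44 of 59 members. Copies were compared by the log2 ratio of counts plus a small constant, with exact permutation.

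Members, role groups and lists were chosen with earlier results of these data known. The named members pass an adjusted p in any tool or an unadjusted edgeR p of 0.05, or are among the 8 most positive or negative at an average log-CPM above or equal to 1, or have the highest CPM of their role group. Other members are given for completeness of their role group. Of each other list, the member with the smallest p in each direction was taken, not all of which are printed, and 1 tested member is not reported here. Alternatives were DESeq2 1.42.0, limma-voom (limma 3.58.1) with quality weights, other scalings and filters, leaving out the 20 most abundant genes, and leaving out libraries. The edgeR procedure was run on simulated counts, with large fold changes set only in well-counted genes. Smaller differences and lightly counted genes, as in many members, were not covered by it. Replicates were numbered in order of deposition. No sequence or coordinate was used.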

Additional observations from a re-analysis of the deposited data

How the results depend on the processing

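The count of slc25a members called was 0 in each direction under all 15 alternatives, and the lowest adjusted p of any member in any setting was 0.0876. The number with a positive fold change was 26 of 44 and ranged from 19 (library size as the only scaling) to 31 (no filter on low counts, 57 members tested). The median log2 fold change of 0.24 reversed to -0.14 when only library size was used for scaling, where the median of all genes also fell, and lay between 0.21 and 0.47 when 1 library was left out. It was 0.32 without DL replicate 1 and rest replicate 3 together. Of the 44 members, 24 kept their sign in every alternative in which they were tested, 17 positive and 7 negative. Many of the 24 named members were chosen for a large fold change in these same libraries, which favours a kept sign. Among the 24, 355 of 360 alternative values kept their sign. The exceptions were slc25a14 (-0.16 with library size as the only scaling), SLC25A25 copy ENSDARG00000010572 (-0.017 to 0.73 when 1 library was left out, 0.98 without DL replicate 1 and rest replicate 3), SLC25A32 copy ENSDARG00000089791 (-1.82 to 0.11) and SLC25A38 copy ENSDARG00000074533 (-0.53 to 0.67, and -0.76 without both of those libraries). Of the copy ratios, SLC25A25 ranged from -2.16 to -0.32 when 1 library was left out and reversed to 0.36 without DL replicate 1 and rest replicate 3 together. The SLC25A44 ratio ranged from -0.74 to 0.96 when 1 library was left out and was -0.14 without both, and slc25a55b over slc25a55a ranged from -0.49 to 3.17. The SLC25A15 ratio stayed between -2.85 and -1.94. The cause of these changes was not tested. No paired analysis was run, because the labels carry no replicate numbers and name no pairs. DL and rest libraries alternate in the order of deposition, but whether neighbours form pairs is not stated. A mean log-CPM of at least 5 was reached by 5 of 44 members, and what limits the number of calls was not tested.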
